A study of Mus musculus with 6 samples.

Results

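Genes of osteoclast differentiation and bone resorption, 10 in all, were followed in mouse osteosarcomas with and without Skp2. Chosen as a list of named genes, they were taken from the series' count table by symbol, and all 10 were found among 56196 genes. By role they are the fusion genes Dcstamp, Ocstamp and Atp6v0d2, the resorption genes Acp5, Ctsk, Tcirg1 and Clcn7, and the regulators and receptors Nfatc1, Oscar and Calcr. Polyadenylated RNA was sequenced from 3 TKO tumours (triple knockout, Osx1-Cre;Rb1lox/lox;p53lox/lox;SKP2-/-) and 3 DKO tumours (double knockout, Osx1-Cre;Rb1lox/lox;p53lox/lox, with Skp2 intact). Both groups thus carry the Osx1-Cre transgene and floxed Rb1 and p53, and Osx1 (Sp7) is a gene of osteoblast precursors, whereas SKP2-/- is written with no lox site. Deletion of Rb1 or p53 was not examined here in any cell type. In each group replicate 1 is from a male and replicates 2 and 3 are from females. The labels give no age. Tumours that differ in genotype or sex came from different mice, but the labels leave unsaid whether replicates 2 and 3 of a group did. P-values cover only the spread among these 6 libraries, part of which may be technical.

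Osteoclasts are multinucleated cells that form by fusion of macrophage-lineage precursors under macrophage colony-stimulating factor and RANK ligand. RANK signalling, together with co-receptors such as OSCAR that signal through the Fc receptor gamma chain, raises NFATc1, the transcription factor that drives the fusion and resorption genes. The mature cell seals onto bone, pumps acid through a vacuolar ATPase (V-ATPase) with chloride following through CLC-7, and releases cathepsin K to digest collagen. Osteosarcoma is a bone-forming tumour of the osteoblast lineage in which osteoclasts can be present as non-tumour cells.

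Total gene counts were 17063231 to 22488819 per library. Skp2 had 0 counts in each TKO library and 20, 64 and 46 counts in DKO1, DKO2 and DKO3. TKO1 stood apart from the other TKO libraries: its log2 CPM (reads per gene scaled to library size) had a correlation across genes of 0.83 to TKO2 and 0.81 to TKO3. The value for TKO2 with TKO3 was 0.91, and that for pairs of DKO libraries was 0.93 to 0.95. These are descriptions, since genes are not independent replicates. TKO1 also stood apart for the osteoclast genes, so the fits without it are given where they bear on a call.

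RefSeq promoter windows (GRCm38.p6) were matched for 6 of the 10 genes, and not for Dcstamp, Ocstamp, Atp6v0d2 or Nfatc1. Printed below are the 250 bases before the start site at the 3 starts of Acp5, the 2 starts of Calcr and the single start of Oscar, the matched genes near absent from DKO tumours, and at the start of Ctsk, which was abundant there. All are 5′ to 3′ on the gene's strand, and capitals mark matches on either strand to GGAAA (the core read by NFAT factors), GAGGAAG (a PU.1-type ETS site) or CATGTG (an E-box of the MITF and TFE factors).
Acp5, chr9:22135747-22135996, minus strand: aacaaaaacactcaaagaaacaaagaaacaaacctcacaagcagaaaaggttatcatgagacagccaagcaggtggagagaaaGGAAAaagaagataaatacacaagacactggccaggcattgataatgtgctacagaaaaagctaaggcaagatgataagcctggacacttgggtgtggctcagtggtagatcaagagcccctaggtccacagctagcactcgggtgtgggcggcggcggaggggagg
Acp5, chr9:22131866-22132115, minus strand: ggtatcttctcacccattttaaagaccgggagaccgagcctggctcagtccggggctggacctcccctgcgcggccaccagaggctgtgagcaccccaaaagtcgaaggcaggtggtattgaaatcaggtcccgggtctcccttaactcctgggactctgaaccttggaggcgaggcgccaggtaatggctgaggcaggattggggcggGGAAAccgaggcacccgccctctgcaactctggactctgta
Acp5, chr9:22130599-22130848, minus strand: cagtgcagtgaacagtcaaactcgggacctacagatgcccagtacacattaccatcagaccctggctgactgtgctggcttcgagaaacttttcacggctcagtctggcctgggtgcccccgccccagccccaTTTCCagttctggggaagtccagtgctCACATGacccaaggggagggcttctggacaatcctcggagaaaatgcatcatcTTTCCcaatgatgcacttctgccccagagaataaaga
Calcr, chr6:3763624-3763873, minus strand: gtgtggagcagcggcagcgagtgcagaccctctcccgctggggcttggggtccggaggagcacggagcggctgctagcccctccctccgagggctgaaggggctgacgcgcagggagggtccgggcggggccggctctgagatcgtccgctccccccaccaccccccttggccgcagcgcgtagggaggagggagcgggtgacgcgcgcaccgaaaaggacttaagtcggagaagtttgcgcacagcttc
Calcr, chr6:3764714-3764963, minus strand: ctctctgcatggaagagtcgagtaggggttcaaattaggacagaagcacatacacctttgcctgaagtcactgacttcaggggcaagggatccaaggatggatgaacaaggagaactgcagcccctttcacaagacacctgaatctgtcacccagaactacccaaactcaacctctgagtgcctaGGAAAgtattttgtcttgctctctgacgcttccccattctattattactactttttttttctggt
Oscar, chr7:3616158-3616407, minus strand: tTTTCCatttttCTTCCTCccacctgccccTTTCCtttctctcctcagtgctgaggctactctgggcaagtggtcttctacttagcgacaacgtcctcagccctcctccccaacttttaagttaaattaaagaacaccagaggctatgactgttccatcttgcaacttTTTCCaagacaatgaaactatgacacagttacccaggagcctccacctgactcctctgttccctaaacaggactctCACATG
Ctsk, chr3:95498960-95499209, plus strand: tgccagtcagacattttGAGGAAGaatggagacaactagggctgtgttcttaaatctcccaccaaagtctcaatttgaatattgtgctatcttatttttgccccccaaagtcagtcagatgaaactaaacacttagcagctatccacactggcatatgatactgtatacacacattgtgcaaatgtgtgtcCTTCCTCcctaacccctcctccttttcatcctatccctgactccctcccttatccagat

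GGAAA occurred 1, 1 and 2 times in the Acp5 windows and 0 and 1 times in the Calcr windows in the order printed, 3 times in the Oscar window and 0 times in the Ctsk window. GAGGAAG occurred once in Oscar, 238 bases before the start, and at 233 and 59 bases before the start in Ctsk. CATGTG occurred at 90 bases before the Acp5 start at 22130598 and at 6 bases before the Oscar start. The Calcr windows held no match to GAGGAAG or CATGTG. The windows of Tcirg1 and Clcn7, matched genes that were also readily measured in DKO tumours, are not printed. The NFAT core GGAAA occurred 2 times before the Tcirg1 start at 3905230 and 1 time before the Clcn7 start at 25133391. It occurred 0 times before the Tcirg1 starts at 3907133 and 3906983 and the Clcn7 start at 25136631. GGAAA thus occurred both before genes near absent from DKO tumours and before genes readily measured there. So few windows cannot show whether the 2 kinds of gene differ in it. The AP-1 site TGANTCA and the E-box CACGTG were also searched, and the 7 printed windows held none of either. Over 32851 windows of the same length, 55.6% held GGAAA, 10.6% GAGGAAG, 12.3% CATGTG, 6.75% TGANTCA and 6.02% CACGTG. Both strands were searched for each motif, and GAGGAAG does not contain GGAAA. A match is a description of the letters, not of binding, and counts per gene do not tell the 3 Acp5 starts apart.

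Most of the osteoclast transcripts were at their highest in TKO2 and TKO3. Of the 10 genes, 9 were higher in both TKO2 and TKO3 than in any DKO tumour (26.7% of all 15361 genes tested were), Clcn7 being the exception. TKO1 had the lowest value of the TKO tumours for 10 of 10 genes (43.1% of all genes tested), and it lay below every DKO tumour for 4 of them, Atp6v0d2, Ctsk, Clcn7 and Nfatc1 (36.3% of all genes tested). These shares cover genes that passed the count filter, whereas the 10 include Dcstamp and Calcr, which did not. The mean log2 CPM of the 8 genes that passed the count filter was 3.62, 8.13 and 8.26 in TKO1, TKO2 and TKO3, against 4.35, 3.93 and 3.25 in DKO1, DKO2 and DKO3.

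**Figure D1:**
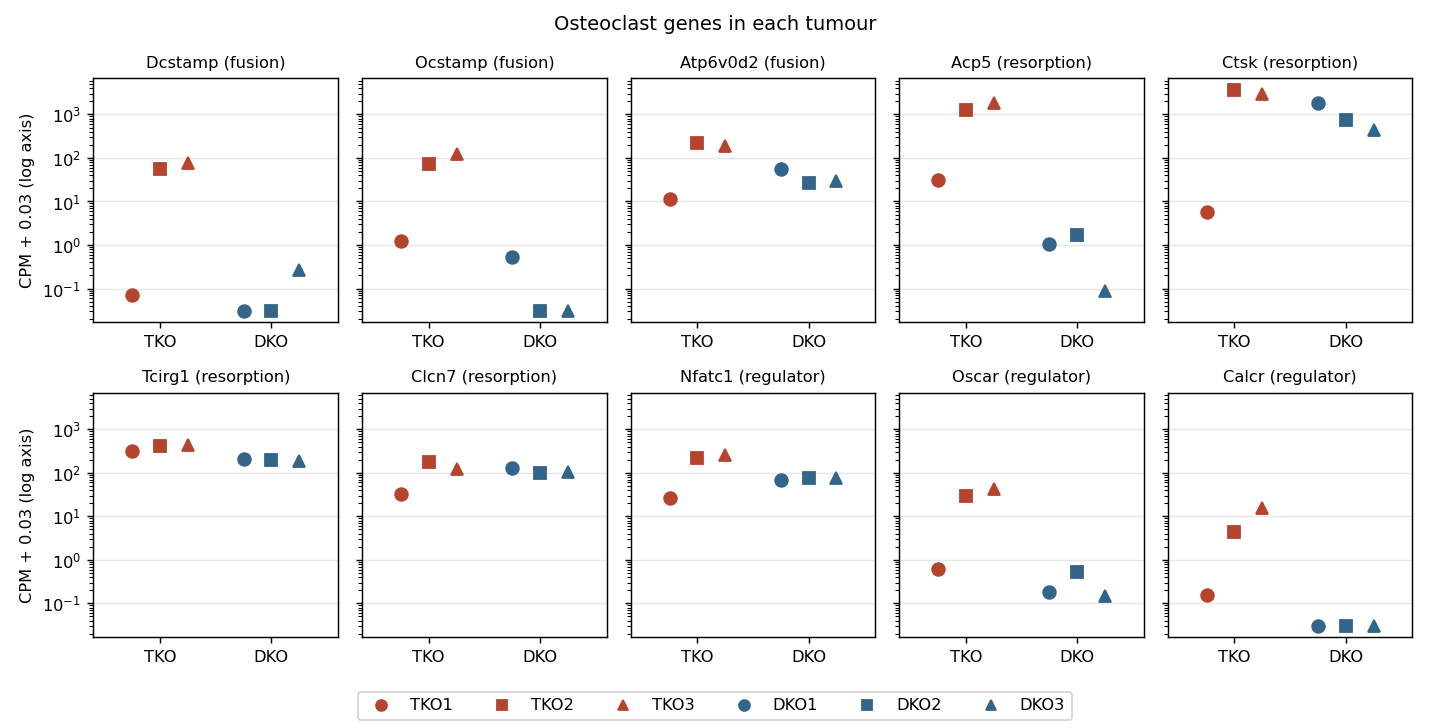
CPM of each osteoclast gene in each tumour, with 0.03 CPM added so that zeros can be drawn on the log axis; each point is 1 tumour, TKO at the left and DKO at the right of each panel. Dcstamp, Ocstamp, Acp5, Oscar and Calcr were high in TKO2 and TKO3 only, while Ctsk and Clcn7 lay above TKO1 in every DKO tumour.

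The fusion genes Dcstamp and Ocstamp were measured almost entirely in TKO2 and TKO3. Dcstamp (ENSMUSG00000022303.9, chromosome 15, 39745930 to 39760938, plus strand, GRCm38) codes for DC-STAMP, a multi-pass membrane protein without which precursors do not fuse. It had 1, 1170 and 1521 counts (0.0415, 56.2 and 77.3 CPM) in TKO1, TKO2 and TKO3, against 0, 0 and 4 counts (0, 0 and 0.237 CPM) in DKO1, DKO2 and DKO3. TKO1 thus lay within the DKO range. The gene did not pass the count filter, which asks for enough reads in 3 libraries, so it has no test with all tumours. Without TKO1 its log2 fold change was 9.73 (SE 0.96, adjusted p = 0.00407). Dcstamp entered that fit only through its reads in TKO2 and TKO3, so it could not have been called lower.

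Ocstamp (ENSMUSG00000027670.4, chromosome 2, 165393760 to 165400405, minus strand), a related fusion protein gene, had 29, 1542 and 2443 counts (1.2, 74.1 and 124.1 CPM) in TKO1, TKO2 and TKO3, against 10, 0 and 0 counts (0.496, 0 and 0 CPM) in the DKO tumours. The groups did not overlap, but TKO1 lay close to DKO1. Mean CPM was 66.5 ± 61.8 over TKO and 0.165 ± 0.287 over DKO tumours (SD, n = 3 each), a 402-fold ratio, and the log2 fold change of 8.55 (SE 2.06) missed the threshold (adjusted p = 0.0546, edgeR's quasi-likelihood test). Without TKO1 the adjusted p was 0.00751.

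Atp6v0d2 (ENSMUSG00000028238.6, chromosome 4, 19876841 to 19922605, minus strand), coding for the d2 subunit of the V-ATPase, which osteoclasts also need to fuse, behaved differently. It had 11.3, 218.0 and 193.3 CPM in TKO1, TKO2 and TKO3, against 55.6, 26.1 and 29.6 CPM in DKO1, DKO2 and DKO3. It was thus readily measured in DKO tumours, where its fusion partners Dcstamp and Ocstamp had between 0 and 10 counts, and TKO1 lay below all of them. The log2 fold change was 1.92 (SE 0.94, adjusted p = 0.257) with all tumours and 2.46 (SE 0.37, adjusted p = 0.0126) without TKO1.

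Among the resorption genes, Acp5 alone passed the threshold. Acp5 (ENSMUSG00000001348.15, chromosome 9, 22126727 to 22135711, minus strand) codes for tartrate-resistant acid phosphatase, the enzyme used to stain osteoclasts. It had 755, 26948 and 36294 counts (31.4, 1295 and 1844 CPM) in TKO1, TKO2 and TKO3, against 21, 32 and 1 counts (1.04, 1.63 and 0.0592 CPM) in DKO1, DKO2 and DKO3. Every TKO tumour lay above every DKO tumour, and TKO2 and TKO3 lay 41.3- and 58.8-fold above TKO1. Mean CPM was 1057 ± 929 over TKO and 0.910 ± 0.793 over DKO tumours (SD, n = 3 each), and the log2 fold change was 10.16 (SE 1.91, adjusted p = 0.0308). That call held without TKO1 (0.00423) and was lost without TKO2 (0.0662), TKO3 (0.0631), DKO1 (0.116), DKO2 (0.117) or DKO3 (0.108), by limma-voom (0.118), with no count filter (0.126) and with sex as a covariate (0.053). The log2 fold change stayed between 9.28 and 10.84 in all of these fits. Over all genes, only 39, 2 and 0 were called in the fits without DKO1, DKO2 and DKO3. An antisense-strand transcript, 6530413G14Rik, shares 137 bases (6.75%) of the Acp5 exons, and reads that fall in both genes were not counted for either.

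Ctsk (ENSMUSG00000028111.4, chromosome 3, 95499256 to 95509362, plus strand) codes for cathepsin K, the collagen-degrading protease of osteoclasts, which fibroblasts and periosteal cells can also express. It had 138, 77780 and 57963 counts (5.73, 3738 and 2945 CPM) in TKO1, TKO2 and TKO3, against 36828, 14820 and 7434 counts (1827, 754.5 and 439.8 CPM) in DKO1, DKO2 and DKO3. TKO1 was the lowest of all 6 tumours and TKO2 and TKO3 the highest. The log2 fold change was 1.15 (SE 1.56, adjusted p = 0.692), and -1.045 by limma-voom (adjusted p = 0.824). Without TKO1 it was 1.72 (SE 0.62, adjusted p = 0.113). The ratio of Ctsk to Acp5 CPM was 0.183, 2.89 and 1.6 in TKO1, TKO2 and TKO3, against 1750, 463 and 7430 in DKO1, DKO2 and DKO3, the last of these resting on 1 Acp5 count. The DKO tumours thus held Ctsk transcripts with almost no Acp5.

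The 2 acid-secreting genes had the smallest ratios of the 10. Tcirg1 (ENSMUSG00000001750.16, chromosome 19, 3896050 to 3907133, minus strand) codes for the a3 subunit of the V-ATPase, whose loss causes osteopetrosis. It had 311.7, 419.2 and 442.5 CPM in TKO1, TKO2 and TKO3, against 204.3, 193.5 and 191.7 CPM in DKO1, DKO2 and DKO3. The groups did not overlap, and TKO1 lay between the DKO tumours and the other TKO tumours. Mean CPM was 391.1 ± 69.8 over TKO and 196.5 ± 6.83 over DKO tumours (SD, n = 3 each), and the log2 fold change of 0.99 (SE 0.27) missed the threshold (adjusted p = 0.0723), passing by DESeq2 (0.00381) and without TKO1 (0.0275).

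Clcn7 (ENSMUSG00000036636.10, chromosome 17, 25133391 to 25162104, plus strand), the gene of the chloride-proton exchanger CLC-7, had 33.0, 175.6 and 123.8 CPM in TKO1, TKO2 and TKO3, against 126.5, 97.1 and 106.8 CPM in DKO1, DKO2 and DKO3. TKO3 lay inside the DKO range and TKO1 below it. The log2 fold change was 0.01 (SE 0.56, adjusted p = 0.995), and 0.44 without TKO1 (SE 0.26, adjusted p = 0.305).

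Of the regulators, Nfatc1 was present in every tumour and Oscar and Calcr had nearly all of their counts in TKO2 and TKO3. Nfatc1 (ENSMUSG00000033016.16, chromosome 18, 80606205 to 80713071, minus strand), which other cells such as lymphocytes and heart valve endothelium also use, had 26.9, 224.8 and 253.8 CPM in TKO1, TKO2 and TKO3, against 66.6, 75.5 and 74.9 CPM in DKO1, DKO2 and DKO3. TKO1 again lay below all DKO tumours and TKO2 and TKO3 above them. Its log2 fold change was 1.22 (SE 0.72, adjusted p = 0.341) with all tumours and 1.72 (SE 0.22, adjusted p = 0.00767) without TKO1. Together with Atp6v0d2 and Ctsk, it made 3 genes with TKO1 below and TKO2 and TKO3 above every DKO tumour, an arrangement shown by 3.92% of all genes tested.

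Oscar (ENSMUSG00000054594.13, chromosome 7, 3609813 to 3616157, minus strand), a collagen-binding co-receptor of osteoclasts, had 14, 598 and 849 counts (0.581, 28.7 and 43.1 CPM) in TKO1, TKO2 and TKO3, against 3, 10 and 2 counts (0.149, 0.509 and 0.118 CPM) in DKO1, DKO2 and DKO3. The groups did not overlap, by 0.581 CPM in TKO1 against 0.509 CPM in DKO2. Its log2 fold change of 6.5 (SE 1.57) missed the threshold (adjusted p = 0.0551) and passed by DESeq2 (2.05e-06) and without TKO1 (0.00371). Oscar kept a near constant proportion to Acp5 in the TKO tumours, with ratios of 0.0185, 0.0222 and 0.0234 in TKO1, TKO2 and TKO3, against 0.143, 0.312 and 2 in DKO1, DKO2 and DKO3, which rest on few counts.

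Calcr (ENSMUSG00000023964.15, chromosome 6, 3685680 to 3764714, minus strand), the receptor through which calcitonin halts resorption, had 3, 91 and 313 counts (0.125, 4.37 and 15.9 CPM) in TKO1, TKO2 and TKO3, against 0 counts in each DKO tumour. Zero counts leave room for up to 3, and against that floor over the whole DKO group the TKO mean was at least 128.5-fold higher. It did not pass the count filter. Without the filter its adjusted p was 0.145 and that of Dcstamp 0.269, and without TKO1 the adjusted p of Calcr was 0.0184. Like Dcstamp, Calcr entered the fit without TKO1 only through TKO2 and TKO3.

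Over the 8 genes tested, 1 was called higher and 0 lower, where 4.89% of all genes were called higher and 2.47% lower (7.36% in either direction). The count of 0 lower genes was also 0 at an unadjusted p under 0.05 and by DESeq2. At an unadjusted p under 0.05 there were 4 higher, and DESeq2 called 4 higher (Acp5, Ocstamp, Oscar and Tcirg1; by that tool 11.6% of all genes were higher, 7.22% lower and 18.8% either). Their median log2 fold change was 1.57, beside 0.09 over all genes tested. The groups did not overlap for 4 of the 8 tested genes, all higher in TKO, beside 17.3% of all genes tested (32.9% in either direction). Without TKO1, 10 genes could be tested and 8 were called higher, all but Ctsk (adjusted p = 0.113) and Clcn7 (0.305), where 9.61% of all 16384 genes were called higher and 4.94% lower (14.6% in either direction). In that fit the 3 fusion genes and the 3 regulators were called, and 2 of the 4 resorption genes. Dcstamp and Calcr passed its filter, which then asked for reads in 2 libraries, only through TKO2 and TKO3. These 2 genes could thus be called higher but not lower. Leaving out any of the other 5 tumours gave 0 called by edgeR (4 to 6 higher at an unadjusted p under 0.05). Over all genes those fits called 475 and 331 without TKO2 and TKO3, and 39, 2 and 0 without DKO1, DKO2 and DKO3. At an unadjusted p under 0.05 they held 2971 to 3618 of 16014 to 16553 genes, in either direction. TKO1 was the lowest TKO tumour for all 10 genes, so the calls without it are a description and not independent support.

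**Figure D2:**
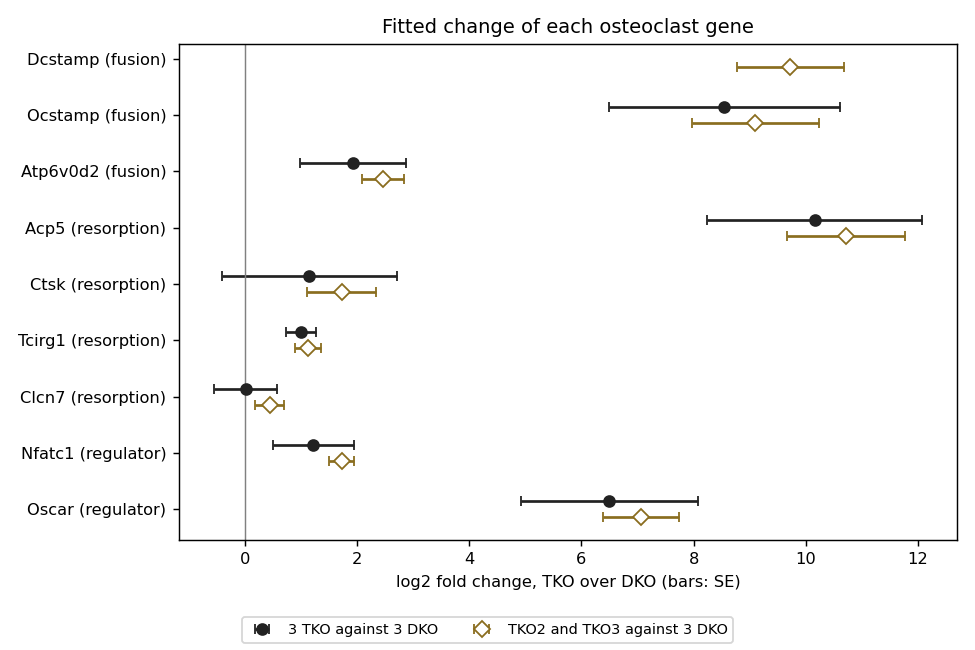
Log2 fold change, TKO over DKO, of 9 osteoclast genes with its SE as bars, from all 6 tumours (filled circles) and without TKO1 (open diamonds); Dcstamp has no value with all tumours and Calcr, at 0 counts in DKO, is not drawn. Ocstamp, Acp5 and Oscar lie at 6.5 to 10.16 with all tumours, whereas Tcirg1 and Clcn7 lie at 0.99 and 0.01.

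By role, the ratio of mean CPM in TKO to mean CPM in DKO had a median of 402 for the 3 fusion genes (3.80 to 564), 2.10 for the 4 resorption genes (1.01 to 1161) and 93.3 for the 3 regulators and receptors (2.33 to at least 128.5). These ratios describe the groups and were not tested against each other. Each role held genes that were readily measured in all DKO tumours (Atp6v0d2; Ctsk, Tcirg1 and Clcn7; Nfatc1) beside genes at or near 0 there (Dcstamp and Ocstamp; Acp5; Oscar and Calcr).

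Levels were compared between genes as CPM per kilobase of annotated exon. In TKO2 and TKO3 Ctsk was highest at 2472 and 1948 CPM per kilobase, followed by Acp5 at 637.9 and 908.3, Tcirg1 at 91.1 and 96.1 and Atp6v0d2 at 80.3 and 71.2. Among the 15339 tested genes with a length, Ctsk ranked 6 and 11 and Acp5 38 and 27 in these tumours. In TKO1 the order was led by Tcirg1 (67.7 CPM per kilobase), then Acp5 (15.5) and Clcn7 (6.24), with Ctsk at 3.79. In DKO1, DKO2 and DKO3 Ctsk was again first at 1209, 499.0 and 290.8 CPM per kilobase and ranked 19, 44 and 109, while Acp5 ranked 12315, 11996 and 14704. Dcstamp and Ocstamp were close to each other in TKO2 (21.1 and 20.3 CPM per kilobase) and TKO3 (29.0 and 33.9), as were Clcn7 and Nfatc1 in TKO2 (33.2 and 30.1), so these neighbours have no fixed order.

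**Figure D3:**
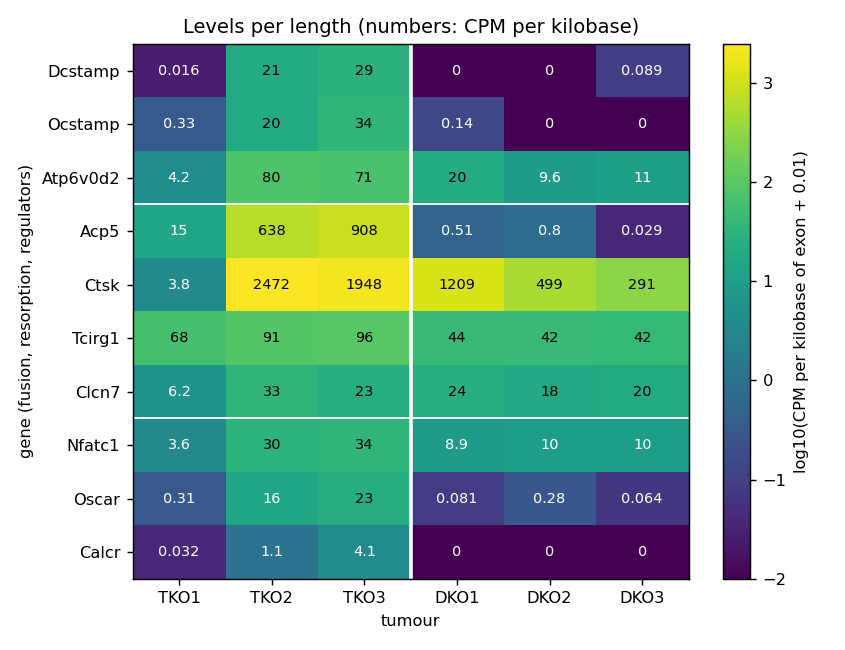
Level of each osteoclast gene in each tumour as CPM per kilobase of exon, printed in the cells and coloured on a log10 scale with 0.01 added; rows are fusion, resorption and regulator genes from top to bottom, and columns are TKO and then DKO tumours. Ctsk is bright in 5 of the 6 columns and dark in TKO1, and Acp5 is bright in TKO2 and TKO3 only.

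Subunits of the V-ATPase that exist in more than 1 form were set against each other within each tumour. The ratio of Atp6v0d2 to Atp6v0d1, coding for the d2 and d1 subunits, was 0.111, 2.53 and 1.86 in TKO1, TKO2 and TKO3, against 0.318, 0.407 and 0.365 in DKO1, DKO2 and DKO3. The d2 form thus exceeded the d1 form in TKO2 and TKO3 and lay below it in the other 4 tumours, and the groups overlapped. On a log2 scale with 0.5 CPM added the ratio averaged -0.30 ± 2.45 over TKO and -1.45 ± 0.18 over DKO tumours (SD, n = 3 each; exact two-sided permutation p = 0.4, where 3 against 3 cannot go below 0.1). The ratio of Tcirg1 to Atp6v0a1, coding for the a3 and a1 subunits, was 8.77, 6.41 and 4.67 in TKO1, TKO2 and TKO3, against 2.35, 1.67 and 1.96 in DKO1, DKO2 and DKO3. All TKO values lay above all DKO values, with a difference of 1.69 log2 units (exact permutation test, two-sided, p = 0.1, which is the lower limit for groups of 3). The ratios alone show unequal levels of the paired subunits and not which of them changed. Atp6v0d1 averaged 97.4 ± 9.72 CPM in TKO tumours and 106.7 ± 59.6 CPM in DKO tumours (SD, n = 3 each; adjusted p = 0.873). Atp6v0a1 had 35.6, 65.4 and 94.7 CPM in TKO1, TKO2 and TKO3, against 87.1, 116.1 and 97.8 CPM in DKO1, DKO2 and DKO3 (adjusted p = 0.36). It was lowest in TKO1, where the Tcirg1 to Atp6v0a1 ratio was highest. Of the 16 broadly expressed V-ATPase genes, 15 were tested and 0 were called in either direction by edgeR or DESeq2 (0 higher and 1 lower at an unadjusted p under 0.05; median log2 fold change 0.11; 0 in either direction without TKO1). Atp6v1h, the member with the smallest p, averaged 80.9 ± 11.2 CPM in TKO tumours and 125.9 ± 9.82 CPM in DKO tumours (adjusted p = 0.162; 0.154 without TKO1). Atp6v0a2 averaged 87.7 ± 27.1 CPM in TKO tumours and 54.8 ± 11.6 CPM in DKO tumours (SD, n = 3 each; adjusted p = 0.239, or 0.361 without TKO1). Atp6v1c1 was listed at 0 in every library although it is a gene of most cells, as were Trem2 and Siglec15, and nothing was read from these zeros.

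**Figure D4:**
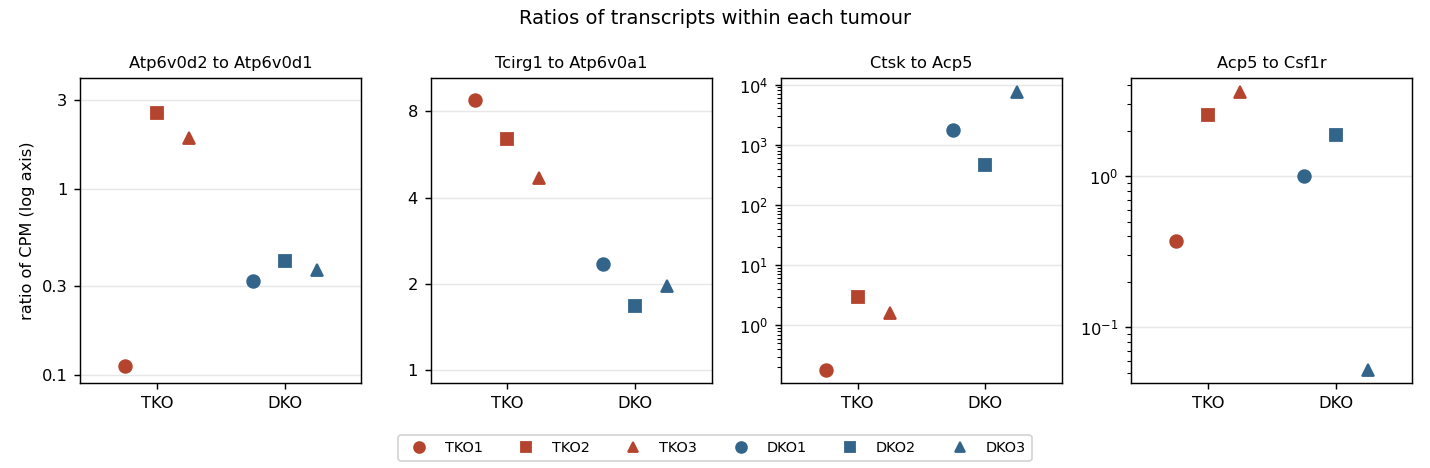
Ratio of CPM between pairs of transcripts within each tumour on log axes, TKO at the left and DKO at the right of each panel; each point is 1 tumour. Atp6v0d2 exceeds Atp6v0d1 in TKO2 and TKO3 only, the Tcirg1 to Atp6v0a1 ratio is 4.67 or more in TKO and 2.35 or less in DKO, and the Ctsk to Acp5 ratio is 2.89 or less in TKO and 463 or more in DKO.

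Genes that act upstream of the osteoclast programme were described from pathway lists. Counts called in each list stand beside 4.89% of all genes called higher and 2.47% lower, or 9.61% and 4.94% without TKO1. Of 12 genes of RANK and co-receptor signalling, 10 were tested, 4 were called higher and 0 lower (7 higher and 0 lower at an unadjusted p under 0.05 and by DESeq2), with a median log2 fold change of 3.33, beside 0.09 over all genes. Without TKO1, 8 of 11 were called higher, among them Sirpb1a, which passed the filter only through TKO2 and TKO3. Csf1r, the receptor of macrophage colony-stimulating factor, had 83.4, 508.2 and 512.5 CPM in TKO1, TKO2 and TKO3, against 1.04, 0.866 and 1.12 CPM in DKO1, DKO2 and DKO3 (adjusted p = 0.0111; 0.000359 without TKO1). The adaptor gene Tyrobp, coding for DAP12, rose to 101.5 ± 58.1 CPM in TKO tumours, against 2 counts over all DKO tumours (ratio 2760, 95% counting interval 764 to 22800; adjusted p = 0.0111, or 0.00153 without TKO1). Fcer1g, coding for the Fc receptor gamma chain through which OSCAR signals, rose to 146.3 ± 133.2 CPM in TKO tumours, against 0.517 ± 0.203 CPM in DKO tumours (SD, n = 3 each; adjusted p = 0.0128, or 0.00219 without TKO1). The kinase gene Btk rose to 15.3 ± 9.3 CPM in TKO tumours, against 0 counts in DKO tumours (at least 289-fold higher; adjusted p = 0.0216, or 0.00581 without TKO1). Tnfrsf11a, the RANK gene itself, named after its values were seen, had 6.98, 51.5 and 58.6 CPM in TKO1, TKO2 and TKO3, against 0.248, 4.63 and 1.3 CPM in DKO1, DKO2 and DKO3 (adjusted p = 0.0845; 0.0311 without TKO1). Traf6, the signalling adaptor of RANK, averaged 36.2 ± 7.74 CPM in TKO tumours and 46.8 ± 5.85 CPM in DKO tumours (adjusted p = 0.457; 0.578 without TKO1). Acp5 stood in a ratio of 0.376, 2.55 and 3.6 to Csf1r in TKO1, TKO2 and TKO3, against 1, 1.88 and 0.0526 in DKO1, DKO2 and DKO3, where both were scarce.

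Of 16 transcription factors of the lineage, 3 were called higher and 1 lower (median log2 fold change 0.85; 5 higher and 1 lower without TKO1). Spi1, coding for PU.1, had 21.9, 157.3 and 125.3 CPM in TKO1, TKO2 and TKO3 and 1 count over all DKO tumours (ratio 5504, 95% counting interval 988 to 217400; adjusted p = 0.0112, or 0.00102 without TKO1). Tfec, a relative of MITF, had 6.19, 10.6 and 11.3 CPM in TKO1, TKO2 and TKO3 and likewise 1 count over all DKO tumours (ratio 519, 92.8 to 20530; adjusted p = 0.0129, or 0.00608 without TKO1). Tfeb, a lysosomal regulator, rose to 26.5 ± 13.2 CPM in TKO tumours, against 4.84 ± 0.448 CPM in DKO tumours (adjusted p = 0.0334; 0.00635 without TKO1). Relb, a subunit of the noncanonical NF-kB pathway, fell to 30.3 ± 10.6 CPM in TKO tumours, against 83.9 ± 8.58 CPM in DKO tumours (SD, n = 3 each; adjusted p = 0.0412, or 0.0445 without TKO1).

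Of 7 genes listed as repressors of osteoclast formation, 1 was called higher and 0 lower (median 1.54; 2 higher and 1 lower at an unadjusted p under 0.05 and by DESeq2; 2 higher and 1 lower without TKO1). That gene was Id1, a helix-loop-helix inhibitor, which rose to 26.4 ± 12.7 CPM in TKO tumours, against 5.55 ± 0.684 CPM in DKO tumours (SD, n = 3 each; adjusted p = 0.0333, or 0.0142 without TKO1). Irf8, which restrains osteoclast formation, averaged 32 ± 11.1 CPM in TKO tumours and 0.797 ± 1.09 CPM in DKO tumours (adjusted p = 0.0607; 0.0387 without TKO1). The Notch effector gene Rbpj averaged 167.7 ± 107.5 CPM in TKO tumours and 452.4 ± 64.7 CPM in DKO tumours (adjusted p = 0.122; 0.0103 without TKO1, where it was the 1 gene called lower).

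Other genes of the resorbing cell included several with high values in TKO2 and TKO3. Of 17 such genes, 0 were called with all tumours by edgeR (5 higher and 0 lower at an unadjusted p under 0.05 and by DESeq2; median log2 fold change 1.27), and 7 were called higher without TKO1. Car2, coding for the carbonic anhydrase that supplies protons, had 0.374, 33.2 and 57.7 CPM in TKO1, TKO2 and TKO3, against 0, 0.713 and 0.532 CPM in DKO1, DKO2 and DKO3 (adjusted p = 0.0986; 0.0132 without TKO1). Ckb, coding for the brain-type creatine kinase, had 2.37, 848.5 and 693.6 CPM in TKO1, TKO2 and TKO3, against 1.84, 7.59 and 5.32 CPM in DKO1, DKO2 and DKO3 (adjusted p = 0.0768; 0.00325 without TKO1). In both genes TKO1 lay within the DKO range. Pstpip1, an actin-associated adaptor gene, averaged 62 ± 51.3 CPM in TKO tumours and 3.88 ± 1.28 CPM in DKO tumours (adjusted p = 0.0617; 0.00296 without TKO1). Slc9b2, a sodium-proton exchanger gene, averaged 92.4 ± 79.8 CPM in TKO tumours and 2.44 ± 2.19 CPM in DKO tumours (SD, n = 3 each; adjusted p = 0.114, or 0.0205 without TKO1). Vav3, coding for a guanine nucleotide exchange factor of the osteoclast cytoskeleton, lay the other way at 21 ± 21.4 CPM in TKO tumours and 62.1 ± 13.8 CPM in DKO tumours (adjusted p = 0.23; 0.244 without TKO1). The gelatinase gene Mmp9, named after its values were seen, had 1.87, 3482 and 4691 CPM in TKO1, TKO2 and TKO3, against 14, 37.7 and 317.9 CPM in DKO1, DKO2 and DKO3 (adjusted p = 0.261; 0.0506 without TKO1).

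Of 8 other genes linked to fusion, 6 were tested and 0 were called by edgeR or DESeq2, or at an unadjusted p under 0.05 (median 0.14). Without TKO1 there was 1, Snx10, a sorting nexin gene that also counts among the resorption genes, at 132.6 ± 88.4 CPM in TKO tumours and 51.1 ± 13.5 CPM in DKO tumours (adjusted p = 0.228 with all tumours). The tetraspanin gene Cd81 averaged 133.1 ± 14.8 CPM in TKO tumours and 169.7 ± 18.3 CPM in DKO tumours (SD, n = 3 each; adjusted p = 0.415). Of the 3 ligands and the decoy receptor, 0 of 4 were called by edgeR or DESeq2, or at an unadjusted p under 0.05 (median -0.09). Tnfsf11, coding for RANK ligand, had 0.0831, 63.1 and 23.8 CPM in TKO1, TKO2 and TKO3, against 110.3, 29.4 and 95.2 CPM in DKO1, DKO2 and DKO3 (adjusted p = 0.583). Tnfrsf11b, coding for its decoy osteoprotegerin, had 1.29, 43.4 and 43.2 CPM in TKO1, TKO2 and TKO3, against 4.91, 7.13 and 8.52 CPM in DKO1, DKO2 and DKO3 (adjusted p = 0.273; 0.00752 without TKO1, where it was the 1 gene of the 4 called). For both genes TKO1 was the lowest of the 6 tumours.

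Of 18 other lysosomal genes, 1 was called higher and 1 lower (median 0.02; 3 and 2 without TKO1). Counts this small lie near the shares of all genes called, 4.89% higher and 2.47% lower. Ctss, the cathepsin S gene of macrophages, rose to 231.2 ± 72 CPM in TKO tumours, against 0.447 ± 0.408 CPM in DKO tumours (SD, n = 3 each; adjusted p = 0.0111). Ctsl, the cathepsin L gene, fell, and had 772.9, 486.6 and 226.8 CPM in TKO1, TKO2 and TKO3, against 3658, 2283 and 2011 CPM in DKO1, DKO2 and DKO3 (adjusted p = 0.0466).

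Markers of other cells differed between the groups as well. In bulk tumour, fewer cells of a type and less RNA per cell cannot be told apart. Of 16 macrophage markers, 14 were called higher and 0 lower, with and without TKO1 (median 8.67, or 8.29 when those absent in DKO took their lower bound), and they summed to 1730, 3660 and 2490 CPM across TKO1, TKO2 and TKO3, against 23 to 132 CPM in DKO tumours. C1qa, C1qb, C1qc and Itgam were at 0 in all DKO libraries, and the pan-leukocyte gene Ptprc had 3 counts over the DKO group. The 2 markers not called were Cd68 (adjusted p = 0.416) and Cd14 (0.0939). TKO1 thus held 1730 CPM of macrophage markers with 31.4 CPM of Acp5 and 1 count of Dcstamp.

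Osteoblast and osteocyte markers, by which the labelled tumour type was checked, summed to 4340, 54800 and 81000 CPM across TKO1, TKO2 and TKO3, against 15900 to 24500 CPM in DKO tumours (2 of 9 tested called higher, 6 of 11 without TKO1). Of those 11, Bglap and Bglap2 passed the filter only through TKO2 and TKO3. Col1a1, the type I collagen gene, had 208.4, 30120 and 26810 CPM in TKO1, TKO2 and TKO3, against 11720, 11180 and 9912 CPM in DKO1, DKO2 and DKO3. Sp7, the gene whose promoter drives the Cre, had 0, 205.7 and 431.9 CPM in TKO1, TKO2 and TKO3, against 7.94, 0 and 0.414 CPM in DKO1, DKO2 and DKO3. It was thus at 0 in TKO1 and DKO2 and near 0 in DKO3. Ibsp, the bone sialoprotein gene, had 0, 388.7 and 3890 CPM in TKO1, TKO2 and TKO3, against 22.8, 0 and 0 CPM in DKO1, DKO2 and DKO3. TKO1 thus lacked Sp7 and Ibsp and held less type I collagen transcript than any other tumour, and DKO2 likewise lacked Sp7 and Ibsp. The labelled bone tumour type was not borne out by these markers in TKO1, nor by Sp7 and Ibsp in DKO2 and DKO3. Other markers of the list were mixed. Alpl had 0.0831 CPM in TKO1, but Spp1, Phex and Dmp1 had 2901, 44.7 and 16.3 CPM there, more than in any DKO tumour. Runx2 had 58.2 CPM in TKO1 and 83.0 and 94.8 CPM in DKO2 and DKO3. The list as a whole thus does not settle the tumour type. Myog, the myogenin gene of differentiating muscle cells, was highest in TKO1. It had 114.7, 4.9 and 2.95 CPM in TKO1, TKO2 and TKO3, against 0 counts in each DKO tumour (adjusted p = 0.0712). Myog was not among the muscle genes with the smallest p, and every other gene of that list was lowest in TKO1 among the TKO tumours. Myh1, for example, had 17.2, 287.7 and 235.6 CPM in TKO1, TKO2 and TKO3. Endothelial markers (7 of 8 called higher, with and without TKO1) summed to 174 to 903 CPM in TKO tumours and 12.7 to 87.6 CPM in DKO tumours. Skeletal muscle markers (8 of 10, or 10 of 10 without TKO1) summed to 518 to 11200 CPM in TKO tumours and 4.12 to 15.6 CPM in DKO tumours, and red cell genes (4 of 4, with and without TKO1) to 88.5 to 1160 CPM in TKO tumours and 0.496 to 1.27 CPM in DKO tumours. Of 7 T and NK cell markers 0 could be tested with all tumours. Without TKO1, 5 passed the filter, only through TKO2 and TKO3, and had 0 counts in every DKO library. All 5 were called higher, a direction that the filter had fixed. The 7 markers summed to 1.54 to 7.93 CPM in TKO tumours and 0 to 0.102 CPM in DKO tumours. The part of these cells in the osteoclast gene values was not tested.

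**Figure D5:**
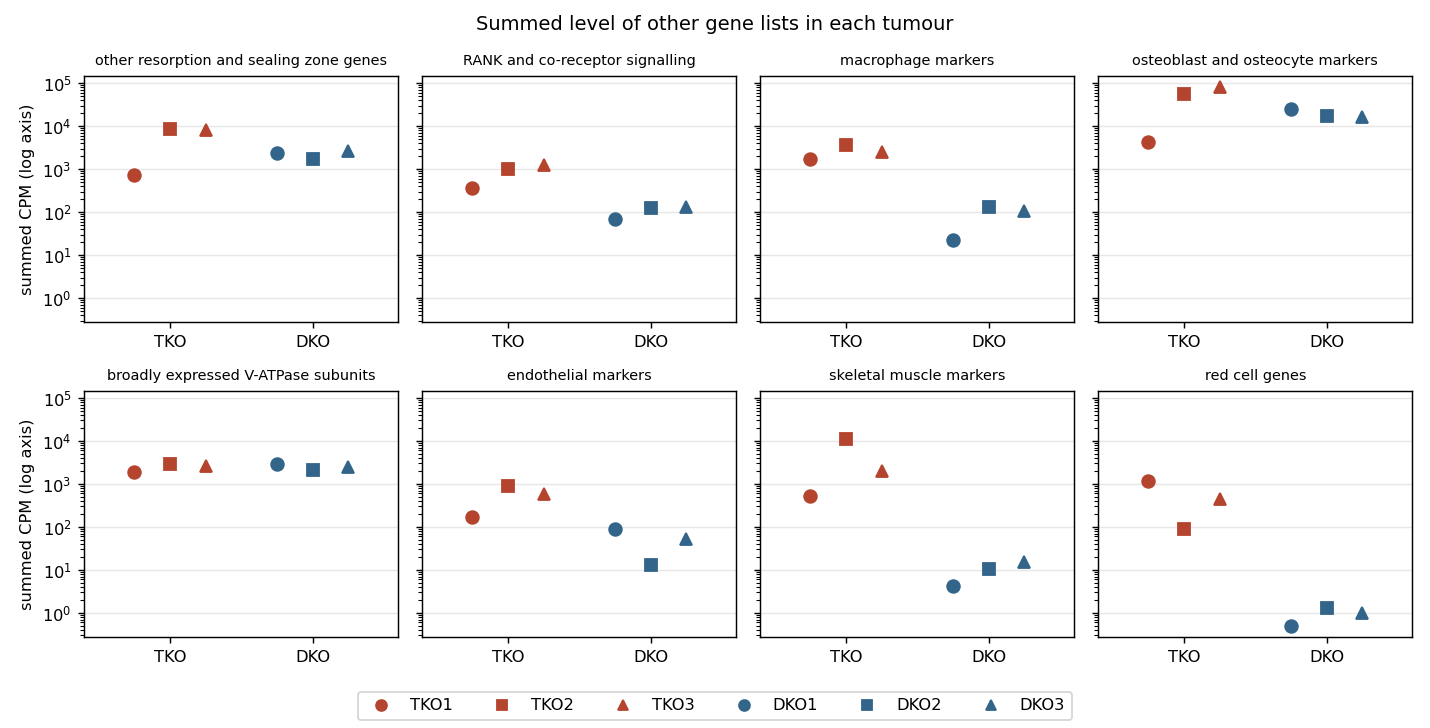
Summed CPM of 8 gene lists in each tumour on a log axis, TKO at the left and DKO at the right of each panel; each point is 1 tumour. RANK signalling, macrophage, endothelial, muscle and red cell lists are higher in every TKO tumour than in any DKO tumour, whereas other resorption genes and osteoblast and osteocyte markers are lowest in TKO1 and highest in TKO2 and TKO3.

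Likeness was measured as the root mean square difference of centred log2 CPM over the 6 tumours. The genes nearest to the mean of the 8 tested osteoclast genes were Plxna4 (0.327 log2 units), Myom1 (0.459), Pstpip1 (0.516), Rgs4 (0.522), Scin (0.579) and B3galt2 (0.588). Plxna4, a plexin gene, had 0.955, 34.7 and 32.9 CPM in TKO1, TKO2 and TKO3, against 2.03, 2.24 and 1.48 CPM in DKO1, DKO2 and DKO3. Nearest to Acp5 were Omd (1.13), Xirp2 (1.3) and Dmp1 (1.34), and nearest to Ctsk were Hoxc10 (0.477), Fgfr2 (0.593) and Cdh11 (0.744). Cdh11, the osteoblast cadherin gene, had 1.62, 464 and 945 CPM in TKO1, TKO2 and TKO3, against 409, 57.7 and 114 CPM in DKO1, DKO2 and DKO3, so that like Ctsk it was lowest in TKO1 among all 6 tumours.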

How the data were processed

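RNA of 3 TKO and 3 DKO tumours was enriched on oligo(dT) beads and read on the HiSeq platform, per the labels' protocols. The authors deposited unnormalized counts of reads per gene, from STAR 2.6.1 on mm10 per the submitters' processing notes. The sources used here do not name the annotation release. The series table equalled the files per tumour (0 genes differed). Reads in no gene, 5.33 to 9.3% of a file, were left out. The first strand held 50.2 to 51.3% of stranded counts, so the unstranded column was used and antisense genes cannot be told apart. GENCODE M21 (GRCm38) named 55154 of 56196 IDs. Genes passing filterByExpr (minimum count 10; 15361 genes) were scaled by TMM and fitted with glmQLFit and glmQLFTest, robust, in edgeR 4.0.16 under R 4.3.3. P-values were adjusted over all genes by Benjamini-Hochberg (threshold 0.05), and this is the test behind each adjusted p without a named tool. CPM refer to the effective library size. The SE is the fold change over the root of F. Alternatives were DESeq2 1.42.0, limma-voom 3.58.1, RLE factors, library totals, other filters, sex, a replicate block and leaving out each tumour. List counts without TKO1 were added after seeing the data. In 5 simulated runs of TKO against DKO on 15361 genes, 8.04% of genes changed 4-fold and 68.7% of those changed 16-fold were recovered, with 3.6 false calls a run. No 2 libraries agreed within sampling noise. With no molecular identifiers, intervals (95%) and the floor of 3 counts cover counting error only.

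The text names the 10 osteoclast genes, genes of each list ranked by p, and the nearest genes in pattern, though not all that this rule allows. The osteoclast genes and all lists were chosen with earlier results of these data known.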

Additional observations from a re-analysis of the deposited data

How the results depend on the processing

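The number of genes called, 1131, became 2893 by DESeq2 and 295 with a replicate block, and 0 to 2385 when 1 tumour was left out. It was 0 without DKO3 by edgeR, with 3017 genes at an unadjusted p under 0.05. The number of osteoclast genes called higher, 1, became 4 by DESeq2 and 0 with no count filter, by limma-voom, with sex as a term and under the replicate block, and 0 to 8 when 1 tumour was left out (8 without TKO1, 0 without each of the other 5). At an unadjusted p under 0.05 the count of higher osteoclast genes was 2 to 9 over these fits. None was called lower in any of them. Under the replicate block the adjusted p of Acp5 was 0.115, with a log2 fold change of 9.40. Clcn7 turned sign to -0.061 with no filter, -0.29 by limma-voom, -0.23 with sex and -0.25 with the replicate block, with -0.48 to 0.44 over the tumours left out, and Ctsk to -1.045 by limma-voom; the cause was not tested. RLE factors, library totals and a minimum count of 20 changed no call of an osteoclast gene. The difference in the log2 ratio of Atp6v0d2 to Atp6v0d1 was 0.34 to 2.57 and that of Tcirg1 to Atp6v0a1 was 1.47 to 1.92 with 1 tumour left out. Same-numbered tumours did not deviate together (correlations of -0.0167 to 0.00889), though they share their sex. Such correlations cannot show whether the numbers mark a pairing by design. Depth limits Dcstamp, Ocstamp, Oscar and Calcr in DKO, where 0 to 10 counts per library leave the size of the ratio uncertain. The ratio of Acp5 is uncertain likewise, with 21, 32 and 1 counts in DKO1, DKO2 and DKO3.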

Other observations

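Among the osteoblast and osteocyte markers, TKO1 lay below the other TKO tumours for some genes and between them for others. Dmp1, an osteocyte matrix protein gene, rose, and had 16.3, 249.9 and 151.3 CPM in TKO1, TKO2 and TKO3, against 0 counts in each DKO tumour (at least 2631-fold higher; adjusted p = 0.0267 in edgeR's quasi-likelihood test; 0.00245 without TKO1). Alpl, the alkaline phosphatase gene of mineralizing cells, had 0.0831, 1520 and 2038 CPM in TKO1, TKO2 and TKO3, against 8.73, 0.764 and 18 CPM in DKO1, DKO2 and DKO3 (adjusted p = 0.158; 0.0152 without TKO1). Spp1, coding for osteopontin, which osteoclasts bind and also make, had 2901, 1196 and 4831 CPM in TKO1, TKO2 and TKO3, against 1607, 564.9 and 250 CPM in DKO1, DKO2 and DKO3 (adjusted p = 0.207; 0.201 without TKO1). Phex, an osteocyte endopeptidase gene, rose, and had 44.7, 6.39 and 210 CPM in TKO1, TKO2 and TKO3, against 0.199, 0.458 and 0.769 CPM in DKO1, DKO2 and DKO3 (adjusted p = 0.0325; 0.0238 without TKO1). For Spp1 and Phex TKO1 lay between TKO2 and TKO3.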
